A study of Mus musculus with 4 samples.

Results

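The Hox genes of the mouse were described here as an open chromatin map: 39 of the 21631 protein-coding genes of the annotation, taken by symbol (Hoxa, Hoxb, Hoxc or Hoxd followed by a number), and the 189 of 113404 called regions that lay between 50 kb outside the first and 50 kb outside the last gene of each of the 4 clusters. HoxA holds 11 genes on chromosome 6, HoxB 10 on chromosome 11, HoxC 9 on chromosome 15 and HoxD 9 on chromosome 2. Bulk ATAC-seq, which uses the transposase Tn5 to cut open chromatin and tag the cut ends for sequencing, had been run on cultured colonic organoids, spheres of gut epithelium grown from colon tissue, of wild-type mice. There were 4 libraries, 1 in each group: organoids from mice with chronic colitis treated for 24 h with 10 µM T-5224, a compound that blocks AP-1 (dimers of Fos and Jun proteins), or with 0.1% DMSO, and organoids from healthy control mice treated in the same 2 ways. These organoids were all grown in medium with Wnt, EGF, Noggin and R-spondin, frozen alive after treatment and thawed before nuclei were taken, and the labels give them 1 batch name; the number of mice behind each culture is not stated. The question of the design was what blocking AP-1 does to transcription factor binding.

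The values at hand were 1 list of regions for the whole series, with no value for any library, so neither disease history nor inhibitor could be compared. The sources used here do not say which libraries entered the call. Each value below is the authors' fold at a summit, the pile-up of reads at the highest point of a region relative to 1 background level used for the whole genome, with an exact Poisson 95% interval from the recovered pile-up. These intervals cover counting error only; there were no replicates, and no test was made. The read depth of each library is unknown. The lowest fold in the list was 2.09, a pile-up of 17, so a gene without a summit was not detectable as open at this depth and threshold. In a bulk list, fewer cells with an open site and less opening in each cell cannot be told apart.

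Hox proteins are homeodomain transcription factors that give the cells of an embryo their position from head to tail. The genes stand in each cluster in the order in which they are used along the body, from paralog group 1, first active and most anterior, to group 13, last active and most posterior; not every cluster has a member of every group. Polycomb proteins keep the unused stretch of a cluster closed, and trithorax proteins, Cdx factors and retinoic acid help to open it. In the gut the anterior groups mark the foregut and the posterior groups the hindgut, and adult intestinal epithelium keeps much of this pattern.

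The epithelial label of the cultures was checked at marker genes. All 8 markers of colon epithelium had a summit at a gene end (median 35.9-fold), against 64.3% of all protein-coding genes. They ran upward from Krt20, an intermediate filament of mature surface cells, at 16.8-fold to the filament gene Krt8 at 59.1-fold. Of 11 markers of other cell types 3 had one, also against 64.3%, with a median of 0: Col1a1, a collagen of fibroblasts, at 16.3-fold, the neuronal gene Elavl4 at 3.01-fold and the glial gene Sox10 at 2.43-fold. The leukocyte genes Ptprc, Cd3e, Cd79a and Lyz2 had no summit in the gene or at its ends, whereas genes of stroma and vessels had summits inside the gene, with 8.81-fold in Pdgfra, 8.35-fold in Cdh5, 4.75-fold in Pecam1 and 3.25-fold in Col3a1. A part of other cells in the Hox values was not tested.

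The clusters also carry microRNA genes, and their mature sequences are shown because they sort these genes into families across clusters. Capitals mark the seed, bases 2 to 8, which pairs with target messages. The sequences are RefSeq's on GRCm38.p6.
miR-10a-5p: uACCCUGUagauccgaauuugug
miR-10b-5p: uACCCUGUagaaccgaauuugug
miR-196a-5p: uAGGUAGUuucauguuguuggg
miR-196b-5p: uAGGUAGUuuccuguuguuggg
miR-615-3p: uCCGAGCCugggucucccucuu
The miR-10 pair, from Mir10a in HoxB and Mir10b in HoxD, shared the seed ACCCUGU and differed by U12A, counted from the 5′ end. The miR-196 pair shared AGGUAGU and differed by A12C; miR-196a-5p is made from both Mir196a-1 in HoxB and Mir196a-2 in HoxC, and miR-196b-5p from Mir196b in HoxA. In mouse, miR-196 cuts the Hoxb8 message. The miR-615 gene lies in HoxC, within Hoxc5, and has a seed of its own.

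Promoter sequences are shown for 5 genes whose start sites differ in base make-up and in the motifs they hold. Each is the 250 bases before a RefSeq start on GRCm38.p6, in the direction of the gene, with motif matches in capitals. Hoxa5 (chr6:52204588-52204837, minus strand) and Hoxd3 (chr2:74711743-74711992, plus strand) had the strongest gene-end summit of HoxA and HoxD. Hoxa13 (chr6:52260881-52261130, minus strand), Hoxb8 (chr11:96281655-96281904, plus strand) and the first listed start of Hoxd11 (chr2:74679308-74679557, plus strand) were chosen after their values were seen, as the richest in GC, the only one with repeated matches to the Cdx motif and the only one with an AP-1 match. Hoxb9, Hoxb13 and Hoxc5 were meant to be shown by the same rule and are named only.
Hoxa5 promoter: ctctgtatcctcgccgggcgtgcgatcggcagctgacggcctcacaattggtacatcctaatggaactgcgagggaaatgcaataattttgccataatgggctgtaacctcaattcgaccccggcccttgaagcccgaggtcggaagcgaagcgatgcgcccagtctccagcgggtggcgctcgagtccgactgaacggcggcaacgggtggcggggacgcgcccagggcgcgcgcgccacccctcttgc
Hoxd3 promoter: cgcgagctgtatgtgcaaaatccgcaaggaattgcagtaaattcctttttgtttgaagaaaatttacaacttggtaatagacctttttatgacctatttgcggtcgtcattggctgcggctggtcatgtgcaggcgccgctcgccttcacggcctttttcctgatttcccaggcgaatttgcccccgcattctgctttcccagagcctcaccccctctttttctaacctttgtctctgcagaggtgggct
Hoxa13 promoter: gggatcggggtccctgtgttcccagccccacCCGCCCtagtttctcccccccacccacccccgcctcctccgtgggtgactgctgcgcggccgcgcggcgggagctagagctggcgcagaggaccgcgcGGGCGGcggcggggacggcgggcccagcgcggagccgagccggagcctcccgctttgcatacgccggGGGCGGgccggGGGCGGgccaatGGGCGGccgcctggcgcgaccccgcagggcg
Hoxb8 promoter: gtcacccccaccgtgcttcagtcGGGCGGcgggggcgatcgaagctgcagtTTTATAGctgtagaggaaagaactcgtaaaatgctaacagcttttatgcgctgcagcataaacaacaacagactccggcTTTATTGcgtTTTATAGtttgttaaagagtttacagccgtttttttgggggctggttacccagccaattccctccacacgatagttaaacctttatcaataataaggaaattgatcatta
Hoxd11 promoter: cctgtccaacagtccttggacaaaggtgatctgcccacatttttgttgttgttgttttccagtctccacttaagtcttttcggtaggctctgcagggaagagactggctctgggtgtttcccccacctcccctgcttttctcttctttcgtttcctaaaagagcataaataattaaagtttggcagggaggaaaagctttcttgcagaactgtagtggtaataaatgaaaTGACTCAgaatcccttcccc
The motifs searched, on both strands, were TGANTCA (AP-1), TTTATNG (Cdx and posterior Hox proteins), TGATTNAT (Pbx with a Hox partner), TGACAG (Meis and Pknox) and GGGCGG (the GC box of Sp factors). The Hoxa5 and Hoxd3 stretches held none. Hoxa13 held 5 GC boxes, was 80% G and C, and the summit of its region fell on base 226, next to the last box at bases 220 to 225. Hoxb8 held 3 copies of the Cdx motif and 1 GC box. The AP-1 match of Hoxd11 covered bases 231 to 237, and the summit there, 5.10-fold, fell on base 240.

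The table used held 24 promoters for 22 of the 39 Hox genes. At least 1 AP-1 match was in 1 of the 24 (4.17%), against 6.14% of all 21255 promoters. The Cdx motif was in 2 (8.33%, against 8.80% of all), the Meis motif in 2 (8.33%, against 15.4%), the Pbx with Hox motif in 2 (8.33%, against 2.52%) and the GC box in 10 (41.7%, against 42.6%). The Pbx with Hox matches were at Hoxa2, bases 140 to 147, and at the second listed start of Hoxd11, bases 178 to 185. The Hox promoters had a median GC content of 58.6%, against 55.6% over all, and a median ratio of observed to expected CpG of 0.721, against 0.530. A match says only that the letters are there, and these sets were not tested against each other.

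Of the 39 Hox genes, 30 (76.9%) had a summit within 1000 bp of either outer end, and so did 64.3% of all protein-coding genes. The median fold at the gene end, with 0 for a gene without a summit, was 6.61 for the Hox genes and 9.62 for all protein-coding genes. Gene ends are used because the annotation gives outer bounds without strand, so some values lie at a 3′ end or at the start of a neighbour. By cluster the genes with a summit were 10 of 11 in HoxA, 9 of 10 in HoxB, 3 of 9 in HoxC and 8 of 9 in HoxD. The median fold was 20.2 in HoxA, 6.90 in HoxB, 0 in HoxC and 6.61 in HoxD. Genes of a cluster share neighbours and sometimes a region, and are not replicates of a cluster.

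**Figure D1:**
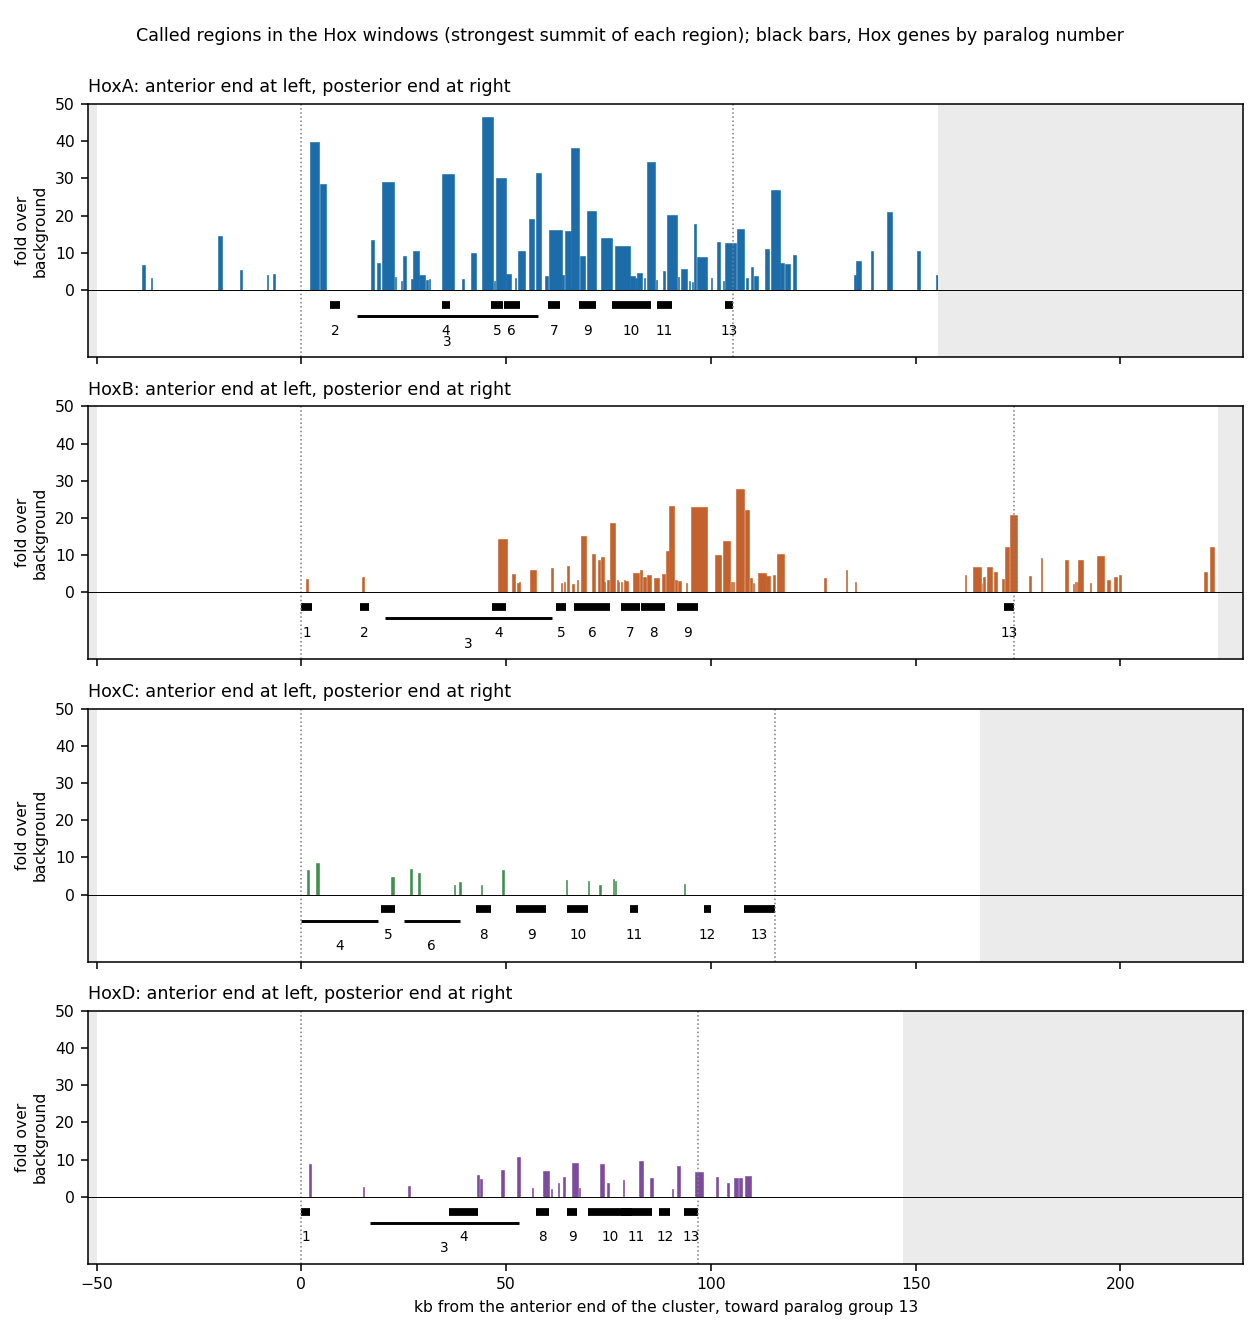
Called regions of the 4 Hox windows. The horizontal axis gives kb from the anterior end of each cluster and the vertical axis the fold of each region's strongest summit; bar width is region width, black bars are Hox genes labelled by paralog number (thin bars where the outer bounds exceed 12 kb), dotted lines mark the cluster ends, and grey lies outside the window. HoxA has regions along most of its length, apart from a 10.9 kb gap at Hoxa2, and peaks at 46.5-fold, HoxB is filled from Hoxb4 to past Hoxb9, and HoxC stays at or below 8.58-fold.

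HoxA was the cluster with the largest covered share. It spans 106 kb of chromosome 6, of which 60.3% lay inside called regions. The window held 72 regions, 51 of them in the cluster. Median width was 894 bp and the median gap between neighbours in the cluster was 391.5 bp. Of its 50 gaps 30 were under 500 bp, and 32 of the 72 regions (44.4%) had more than 1 summit.

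The anterior HoxA genes set the pattern of the head, neck and hindbrain. Hoxa2, which patterns the hyoid arch, was the only HoxA gene with no summit in it or within 1000 bp; a window of 2000 bp reached a summit of 28.6-fold. It stood in the longest gap of the cluster, 10.9 kb (chr6:52161490-52172389), together with Hoxaas2, which had none either. Hoxa3, a thymus and parathyroid gene, had 31.4-fold (27.8 to 35.4) at its start and Hoxa4 31.3-fold (27.7 to 35.3). The outer bounds of Hoxa3 cover 44.0 kb and run across Hoxa4, Hoxa5 and Hoxa6. The start read for Hoxa3 thus lies between Hoxa6 and Hoxa7, and an end of Hoxaas3 is within 1000 bp of the same summit.

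In the middle of HoxA stood the highest Hox value. Hoxa5, which acts in lung and gut development, had 46.5-fold (42.1 to 51.3) in a region of 2605 bp whose summit lay 646 bp outside its 3′ end. At its start, whose promoter is printed above, the fold was 30.03 (26.5 to 33.9). That start also serves as the value of Hoxa6, since the 3′ end of Hoxa6 is 331 bp from the same summit; at its own start Hoxa6 had 10.6-fold (8.51 to 12.9). An end of the noncoding RNA Hoxaas3 lies 16 bp from the 46.5-fold summit. Hoxa7 had 16.1-fold (13.6 to 19.0) in a region of 3307 bp that took in 96.0% of the gene.

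The posterior HoxA genes were open as well. Hoxa9, a factor of blood stem cells, had 9.04-fold (7.16 to 11.3) at its 3′ end, 5.22-fold at its start and 21.2-fold inside the gene. Between Hoxa7 and Hoxa9 lay the third strongest Hox region, 38.3-fold (chr6:52221295-52223092), which touches neither gene. Hoxa10, a uterine and limb gene, had 34.5-fold (30.7 to 38.7), the highest of the groups 9 to 13. That value lies at the outer of its 2 listed starts, and near the other it was 11.8-fold. The widest HoxA region, 3740 bp with 6 summits and 11.8-fold, lay within Hoxa10. Hoxa11, its neighbour in limb and uterus, had 20.2-fold (17.3 to 23.4), in a region shared with its antisense gene Hoxa11os. Hoxa13, active in hindgut and digits, had 12.5-fold (10.3 to 15.1) in a region that covered 99.2% of the gene. Just beyond it Hottip, a noncoding RNA known in human cells to hold the posterior HoxA genes active, had 16.5-fold. Between Hoxa9 and Hoxa10, Mir196b sat wholly inside a region of 13.9-fold and 2622 bp.

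**Figure D2:**
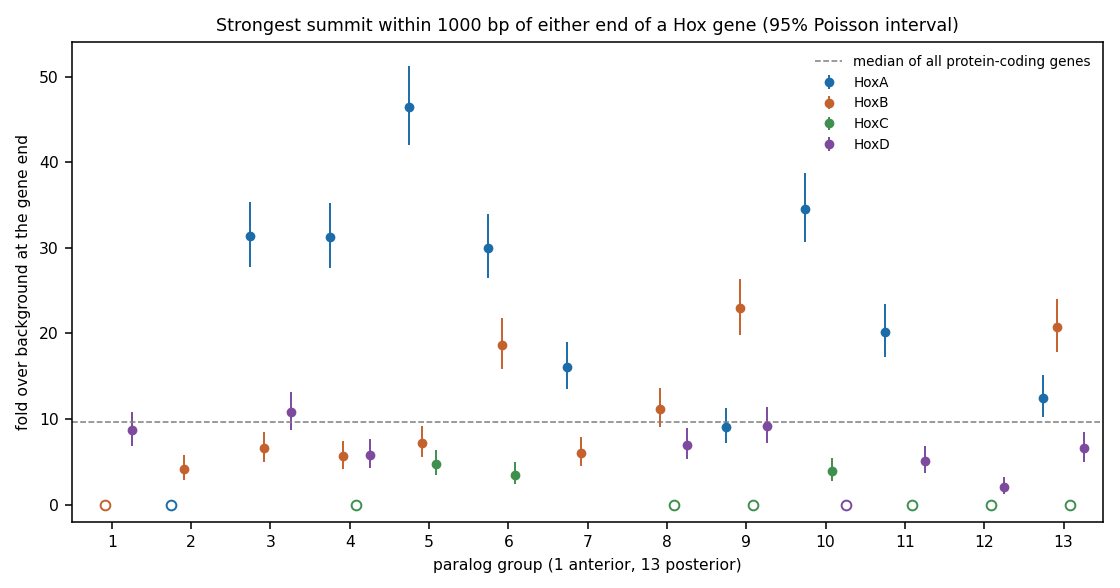
Fold at the gene end against paralog group, 1 to 13, for the Hox genes reported here, coloured by cluster. Bars are exact Poisson 95% intervals, open circles at 0 are the 9 genes without a summit, and the dashed line is the median of all protein-coding genes, 9.62; of the genes above 25-fold all 5 are in HoxA.

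HoxB was open in its middle, with few called regions toward Hoxb1. The cluster spans 174 kb (chr11:96194316-96368254), and 28.5% of it was covered. Its window held 75 regions, 61 in the cluster, with a median width of 615 bp and a median gap of 448 bp; 32 of 60 gaps were under 500 bp. The 10 kb steps from 70 to 110 kb past the Hoxb1 end were between 56.8% and 73.7% covered. The step with Hoxb1 was 3.72% covered and that with Hoxb2 5.59%, and no region was called in the 20 kb after them.

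Hoxb1, a hindbrain gene, had no summit at an end and a weak one of 3.48-fold inside. Hoxb2, also of the hindbrain, had 4.17-fold (2.94 to 5.76), on the side of its 3′ end, in a region shared with Hoxb3os. Hoxb3 had 6.61-fold (5.02 to 8.55), at a summit 78 bp from its start. The 3′ end of Hoxb5 and an end of Hoxb5os are also within 1000 bp of that summit. Hoxb4, known for expanding blood stem cells, had 5.68-fold (4.22 to 7.49) at its start and 14.4-fold inside. These anterior genes flanked the longest gap of any Hox cluster, 32.7 kb from Hoxb4 to Hoxb2 (chr11:96320300-96352997), most of it inside the outer bounds of Hoxb3.

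Of the later genes, Hoxb6, Hoxb8, Hoxb9 and Hoxb13 had end values whose intervals lay above those of every anterior HoxB gene, while Hoxb5 and Hoxb7 did not. Hoxb5, which acts in the enteric nervous system, had 7.19-fold (5.53 to 9.20) and Hoxb6 had 18.7-fold (15.9 to 21.8). Hoxb7 had 6.03-fold (4.52 to 7.89) and Hoxb8 11.1-fold (9.03 to 13.6). The value of Hoxb8 lies at its outer end; at the listed start whose promoter is printed above it was 3.94-fold. Hoxb9 had 23.0-fold (19.9 to 26.4), the highest gene-end value of HoxB, in the widest Hox region of all, 3885 bp with 5 summits (chr11:96269096-96272980). Hoxb13, a marker gene of hindgut and prostate, had 20.8-fold (17.8 to 24.0), and the intervals of Hoxb9 and Hoxb13 overlapped.

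Hoxb9 and Hoxb13 are parted by a long stretch without a Hox gene, and its chromatin was uneven. On the Hoxb9 side it held the strongest region of HoxB, 27.8-fold (24.4 to 31.6; chr11:96260103-96261989), and beside it a region of 22.0-fold. It also held Mir196a-1, whose mature miR-196a-5p overlaps the edge of a 1702 bp region of 13.9-fold. Nearer Hoxb13 came gaps of 9.92 and 26.5 kb, the longer one at chr11:96206308-96232761. In the 10 kb step next to the one with Hoxb13 6 regions covered 53.0% of the bases, with no summit above 6.84-fold. Mir10a, in the middle of the cluster, lay outside any region, its miR-10a-5p 441 bp from one of 4.99-fold.

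HoxC had the smallest covered share. Of its 116 kb (chr15:102921131-103036856), 5.39% was covered, by 15 regions of a median width of 394 bp and with a median gap of 4376 bp. Only 1 of the 15 had more than 1 summit, and 1 of 14 gaps was under 500 bp. The strongest was 8.58-fold (6.75 to 10.8; chr15:103032650-103033202), inside Hoxc4.

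Among the HoxC genes, Hoxc5 had 4.75-fold (3.43 to 6.43), Hoxc6, a limb-level gene, 3.48-fold (2.37 to 4.94) and Hoxc10, of the lumbar spinal cord, 3.94-fold (2.75 to 5.49). The widest HoxC region, 739 bp, was that of Hoxc5. Hoxc4 had no summit at an outer end, but 6.72-fold near its listed start, which lies inside those bounds. Hoxc8, of the brachial spinal cord, had 2.67-fold inside the gene only. Hoxc9, of the thoracic cord, Hoxc11, Hoxc12 and Hoxc13, a gene of hair and nails, had no summit in or near them. The longest gaps were 17.8 kb between Hoxc5 and Hoxc4, 16.4 kb around Hoxc11 and 14.985 kb around Hoxc9. Hotair, a noncoding RNA between Hoxc11 and Hoxc12 that binds Polycomb proteins in human cells, had 2.78-fold (1.81 to 4.12) near one end. The miR-196a-5p of Mir196a-2 lay 1019 bp from the nearest region, while miR-615-3p was 127 bp from that of Hoxc5.

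HoxD lay between HoxB and HoxC in covered share. Its 96.9 kb (chr2:74668225-74765142) were 13.7% covered, with 27 regions in the window and 22 in the cluster, a median width of 540 bp and a median gap of 2797 bp. Of 21 gaps 2 were under 500 bp. No HoxD summit passed 10.8-fold, and 8 of the 9 genes had a summit and were thus marked, but at low values.

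The anterior HoxD genes all had a summit at an end. Hoxd1, a gene of pain-sensing neurons, had 8.70-fold (6.85 to 10.9) 15 bp before its start, where an end of the noncoding RNA Haglr also lies. Hoxd3, of the neck vertebrae, had 10.8-fold (8.71 to 13.2; chr2:74711623-74712514), the strongest region of HoxD. Hoxd4 had 5.80-fold (4.32 to 7.63) and Hoxd8 6.96-fold (5.32 to 8.94). The longest HoxD gap, 16.5 kb (chr2:74722211-74738678), ran through Hoxd4 and the outer bounds of Hoxd3 and held Mir10b, whose miR-10b-5p lay 3864 bp from the nearest region. Hoxd3os1, antisense in the same part, had 7.19-fold.

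The posterior HoxD genes, which shape limbs, genitals and hindgut, had values from none to that of Hoxd9. Hoxd9 had 9.16-fold (7.26 to 11.4). Hoxd10 had no summit at an outer end, but 8.70-fold near its listed start. Hoxd11 had 5.10-fold (3.72 to 6.83) at the start printed above and 9.74-fold at its second listed start. Hoxd12 had the lowest value in the list, 2.09-fold (1.26 to 3.27), and no region in the gene. Hoxd13 had 6.61-fold (5.02 to 8.55), at the widest HoxD region, 1916 bp with 4 summits (chr2:74667113-74669028). The intervals of Hoxd9 and Hoxd13 overlapped, and so did those of Hoxd11 and Hoxd13.

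Over the 4 clusters, end values did not run in 1 direction along the paralog number. Groups 1 to 4 had a summit in 9 of 12 genes and a median of 6.20-fold, groups 5 to 8 in 10 of 11 with 7.19-fold, and groups 9 to 13 in 11 of 16 with 5.85-fold. Within HoxB the end medians went up with the class, 4.93, 9.16 and 21.9-fold, the last from 2 genes. With summits anywhere in the gene counted, Hoxb1 had 3.48-fold and Hoxb2 4.17-fold. Hoxb3 and Hoxb4 then had 14.4-fold each, from the same summit. Hoxb5, Hoxb6, Hoxb7 and Hoxb8 had 7.19, 18.7, 6.03 and 11.1-fold, so the first step up rests on the end used. Within HoxA the end medians were 19.3, 30.03 and 16.3-fold. The 30.03 was the value of Hoxa6, read at the start of Hoxa5. At their own starts Hoxa5, Hoxa6 and Hoxa7 had 30.03, 10.6 and 16.1-fold, so the high middle of HoxA rests on the end used. Within HoxD the end medians were 8.70, 6.96 and 5.10-fold, the middle one from 1 gene. At listed starts Hoxd9, Hoxd10, Hoxd11, Hoxd12 and Hoxd13 had 9.16, 8.70, 9.74, 2.09 and 6.61-fold. The values of Hoxd1, Hoxd3 and Hoxd4 stayed the same there, so the low last HoxD median rests on the end used. HoxC had end medians of 0, 3.48 and 0, the first from 1 gene, Hoxc4, with 6.72-fold near its listed start. All these class medians use gene ends, and some genes of every class had higher values inside the gene than at an end. Among them were Hoxa3, Hoxb1, Hoxb3, Hoxb4 and Hoxc4 of groups 1 to 4, and Hoxc6 and Hoxc8 of groups 5 to 8. Of groups 9 to 13 they included Hoxa9, Hoxd10 and Hoxd11. With summits anywhere in the gene counted, the median was 9.74-fold for groups 1 to 4 and 8.93-fold for groups 9 to 13.

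Within 1 paralog group the values differed by cluster. In group 13 the values were 12.5-fold for Hoxa13, 20.8 for Hoxb13, 0 for Hoxc13 and 6.61 for Hoxd13. In group 9 they were 9.04 for Hoxa9, 23.0 for Hoxb9, 0 for Hoxc9 and 9.16 for Hoxd9, and the intervals of Hoxa9 and Hoxd9 overlapped. The Hoxa9 value lies at its 3′ end, that of Hoxd9 at its start. At its own start Hoxa9 had 5.22-fold (3.82 to 6.96), below the Hoxd9 interval (7.26 to 11.4). In group 4 the values were 31.3 for Hoxa4, 5.68 for Hoxb4, 0 for Hoxc4 and 5.80 for Hoxd4, the Hoxb4 and Hoxd4 intervals overlapping. The 0 of Hoxc4 holds for its outer ends only. Near its listed start it had 6.72-fold (5.12 to 8.68), an interval that overlaps those of Hoxb4 and Hoxd4, also read at starts. Groups 3, 4, 5, 6, 7, 10 and 11 had their highest value in HoxA, groups 8, 9 and 13 in HoxB, and group 12 in HoxD. Group 2 had it in HoxB, since Hoxa2 had no summit, and that Hoxb2 value lies on the side of its 3′ end. The value of Hoxa3 in group 3 lies between Hoxa6 and Hoxa7. For group 6 the order rests on a summit at the start of Hoxa5. At their own starts Hoxa6 had 10.6-fold (8.51 to 12.9) and Hoxb6 18.7-fold (15.9 to 21.8). For group 8 the order rests on the outer end of Hoxb8. At its listed start Hoxb8 had 3.94-fold (2.75 to 5.49), against 6.96-fold (5.32 to 8.94) at Hoxd8, and these intervals overlapped. How far reads of related Hox sequences were shared between clusters was not tested.

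Regions of the Hox windows were wider and closer together than in the whole list, while the median fold was close to that of all regions. Median width was 620 bp, against 481 bp for all regions, and the median gap 735 bp, against 4280 bp. More than 1 summit was present in 37.6% of the Hox regions (Wilson 95% interval 31.0 to 44.7), against 21.6% of all. The median region had 5.10-fold, against 4.99-fold, and 23.8% of the Hox regions (18.3 to 30.4) passed 10-fold, against 27.1% of all. Regions of 3 kb or more were 3 of 189, or 1.59% (0.541 to 4.56), against 1.55%. The 4 clusters together were 27.0% covered, against 3.23% of the spans of the whole list. Neighbouring regions are not independent, so these intervals may be too narrow.

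**Figure D3:**
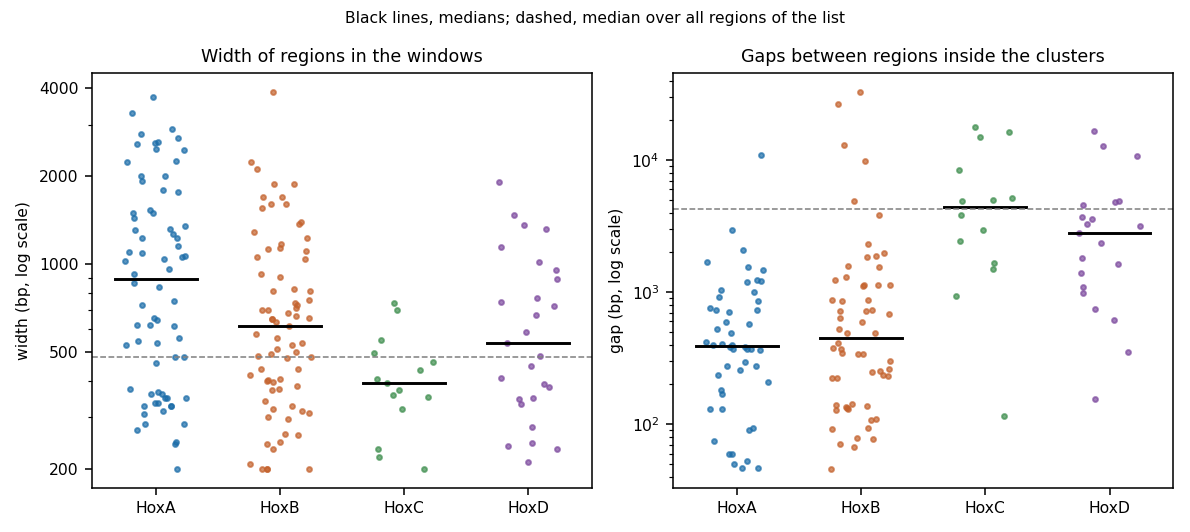
Width of each region in the Hox windows (left, bp, log scale) and each gap between neighbouring regions inside a cluster (right, bp, log scale), by cluster. Black lines are medians, widths 894, 615, 394 and 540 bp and gaps 391.5, 448, 4376 and 2797 bp for HoxA to HoxD; dashed lines are the medians over the whole list, 481 and 4280 bp.

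The flanks of the clusters were lopsided. The 50 kb beyond the high-numbered end held 16 regions at Hoxa13, 15 at Hoxb13, 0 at Hoxc13 and 6 at Hoxd13. At Hoxa13, Hoxb13 and Hoxd13, 1 of these regions lies across the end of the cluster and is counted in the cluster as well. The 50 kb beyond the low-numbered end held 6 regions at HoxA and 0 at each of Hoxb1, Hoxc4 and Hoxd1. The covered share was 30.1% beyond Hoxa13, 18.7% beyond Hoxb13 and 10.4% beyond Hoxd13, against 5.79% on the anterior side of HoxA. The first region outside came after 70.5 kb at Hoxb1, 84.6 kb at Hoxc4, 102 kb at Hoxc13 and 51.1 kb at Hoxd1. HoxC was thus bare on both sides, HoxB and HoxD on their anterior side, and HoxA on neither.

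**Figure D4:**
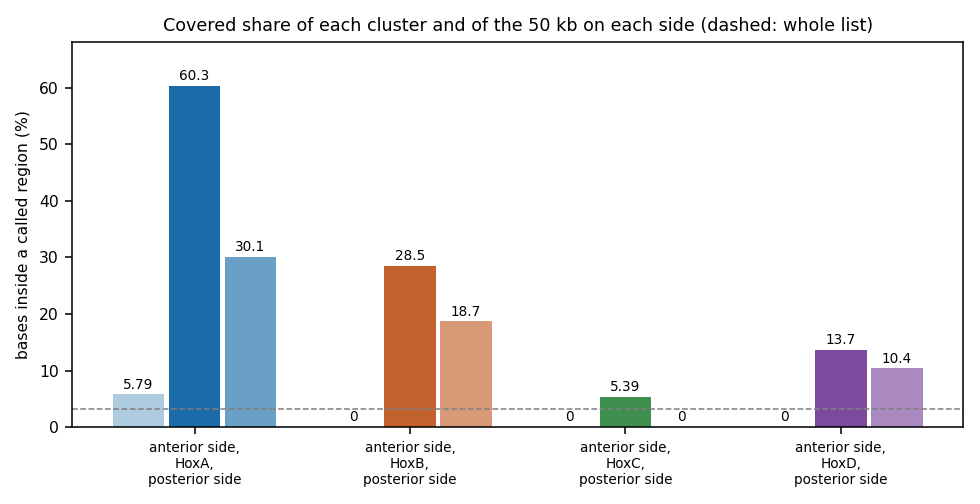
Share of bases inside a called region (percent), for the 50 kb beyond the low-numbered end (left bar), the cluster (middle bar) and the 50 kb beyond the high-numbered end (right bar) of each Hox cluster. The dashed line is the share over the whole list, 3.23%; the 4 bars at 0 are both HoxC flanks and the Hoxb1 and Hoxd1 sides.

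The nearest genes outside the clusters set how long these flanks are. Evx2, an even-skipped homeobox gene that shares the digit and genital enhancers of HoxD, begins 6.71 kb beyond Hoxd13. Evx2 had 3.59-fold (2.46 to 5.08) at that outer end and 5.10-fold near its listed start. Its relative Evx1 begins 52.6 kb beyond Hoxa13 and had 7.65-fold (5.93 to 9.72). Beyond Hoxb13 the next gene is Ttll6, at 28.1 kb. On the low-numbered sides the next genes were Skap2 at 143 kb from HoxA, Skap1 at 96.3 kb from Hoxb1, Smug1 at 116 kb from Hoxc4 and Mtx2 at 60.7 kb from Hoxd1; Calcoco1 followed Hoxc13 at 199 kb. These intervals differed in how many regions they held. The 143 kb between HoxA and Skap2 held 11 regions, the 116 kb between Hoxc4 and Smug1 held 3, and the 199 kb between Hoxc13 and Calcoco1 held 7. Halr1, a noncoding RNA on the anterior side of HoxA, had 4.06-fold.

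HoxD is known for its pair of gene deserts, where limb, genital and gut enhancers lie. On the anterior side, the 575 kb from Mtx2 to the predicted gene Gm50595 (chr2:74876749-75451973) held 11 regions, 1.91 per 100 kb, none above 8.58-fold. On the posterior side, the 602 kb from Lnpk to Atp5g3 (chr2:73912465-74514835) held 13 regions, 2.16 per 100 kb, none above 13.8-fold. In 100 kb steps over all chromosomes the median was 2 regions and the mean 4.31, and 38.6% of steps had none, so the rates of both deserts were near the median and below the mean. The share of bases covered was 0.621% in the anterior and 1.18% in the posterior desert, against 3.23% over the whole list. The HoxA flank was fuller: the 228 kb from Evx1 to Hibadh (chr6:52318390-52546229) held 24 regions, 10.5 per 100 kb, up to 56.1-fold, and the 268 kb between Skap2 and Snx10 held 14. The barest long interval was 331 kb from Glycam1 to Mucl2 beyond Hoxc4, with 2 regions.

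Out to 1 Mb, HoxA and HoxB had nearly as many regions on one side as on the other, while HoxC had more beyond Hoxc13 and HoxD more beyond Hoxd1. HoxA had 80 regions on its anterior side and 92 beyond Hoxa13, HoxB 107 beyond Hoxb1 and 112 beyond Hoxb13. HoxC had 72 beyond Hoxc4 and 144 beyond Hoxc13, HoxD 71 beyond Hoxd1 and 28 beyond Hoxd13. The numbers of protein-coding genes in these stretches differ too, from 4 beyond Hoxa13 and Hoxd1 to 30 beyond Hoxc13, and their part in the counts was not tested. The longest stretch without a region on any side was 270 kb, beyond Hoxc4.

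**Figure D5:**
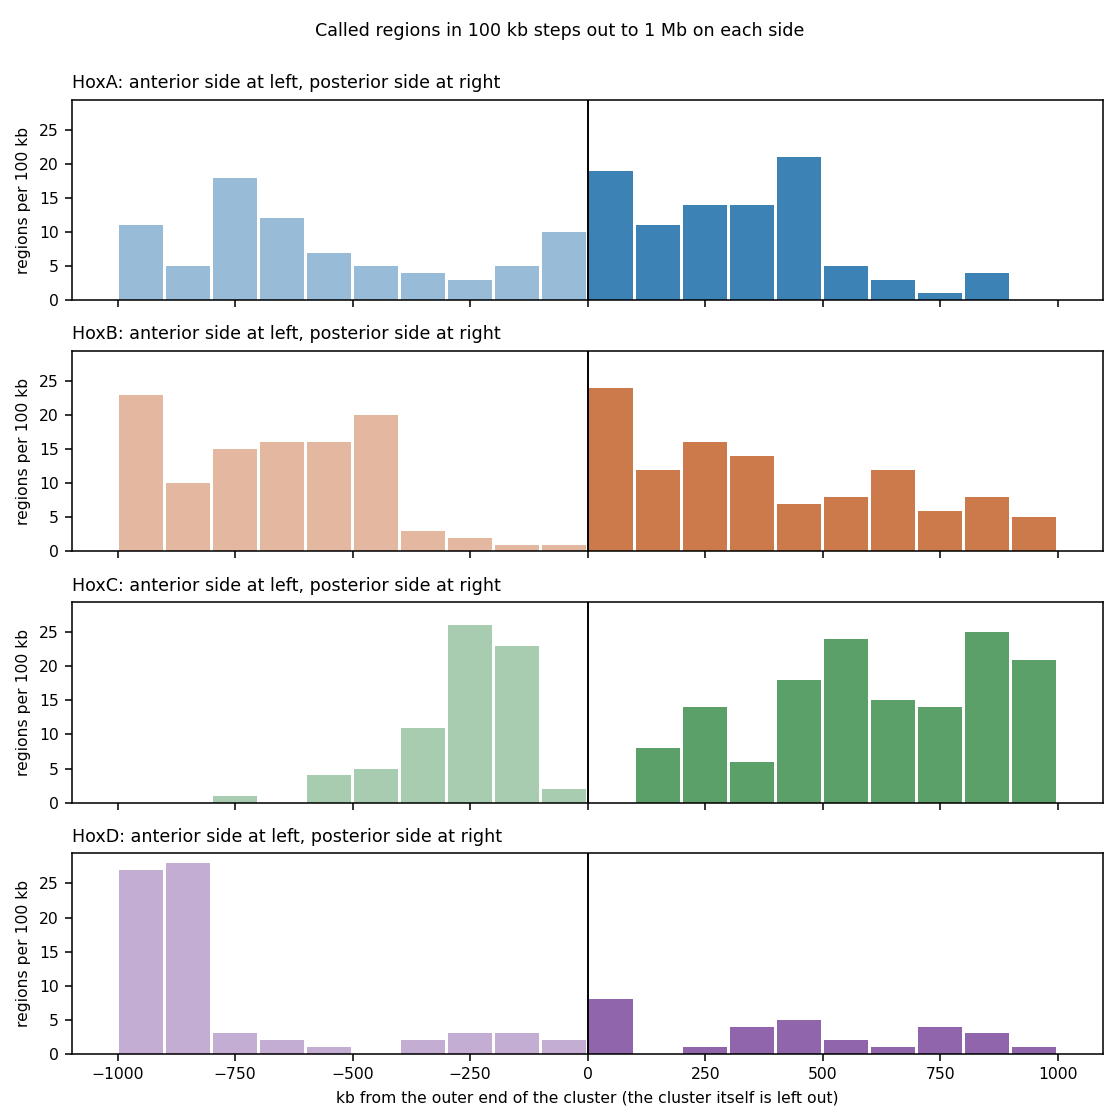
Number of called regions in each 100 kb step, out to 1 Mb (kb on the horizontal axis) beyond the low-numbered end (left of 0) and the high-numbered end (right of 0) of each cluster; the clusters are left out. The first step beyond the high-numbered end held 19 regions at HoxA, 24 at HoxB, 0 at HoxC and 8 at HoxD, and that beyond the low-numbered end 10, 1, 2 and 2.

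The proteins that work with Hox factors or act on the clusters are encoded elsewhere, and were read from a list of 27 genes. Of these, 23 (85.2%) had a summit at a gene end, against 64.3% of all protein-coding genes. The median over the 27, with 0 for a gene without a summit, was 12.6-fold, against 9.62-fold over all protein-coding genes. Among the strongest was Pknox1, a homeodomain partner of Hox proteins, at 63.0-fold. Also high were Kmt2a, a trithorax methyltransferase, at 42.8-fold and Eed, a Polycomb subunit, at 40.8-fold, and the intervals of Kmt2a and Eed overlapped. Cdx2, the intestinal factor that also acts on Hox clusters, followed at 40.6-fold. The 4 without a summit at an end were Rarb, a retinoic acid receptor, with 22.5-fold inside the gene, the cohesin gene Rad21, with 42.1-fold inside, and Cyp26a1, which degrades retinoic acid, and Cdx4, both with none.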

How the data were processed

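The authors deposited 1 list of called regions for the series; per the submitters' processing notes, Bowtie2 and MACS2 were used with mm10, and no source used here gives versions, thresholds or pooling. Each record holds the deposited score, the fold ratio at the summit, −log10 p and −log10 q as the authors' peak caller gave them, and a summit position. The score was 10 times −log10 q, and fold values were whole pile-ups plus 1 over 1 background (7.63 plus 1) in 100% of 157922 records (tolerance 0.01). Records sharing bounds were merged into 113404 regions. Lowest −log10 p and q were 3.02 and 1.51.

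Genes, promoters and microRNAs came from RefSeq tables of GRCm38.p6, the assembly behind mm10. All 39 Hox genes were found. The highest summit within 1000 bp of either outer end gave the fold of a gene, and Poisson 95% intervals came from pile-ups. Flanks were 50 kb. Named were the Hox genes, their neighbours, noncoding genes, the strongest and widest region and longest gap of each cluster, and fixed lists; other regions, gaps and 3 promoters were named after their values were seen. Members and lists were chosen with earlier results of these data known. Code (Python 3.11.15, pandas 2.3.3, scipy 1.17.1) was tested on simulated data. Other windows, a −log10 q of 10 or more and other flanks were tried. Some of the genes that the rule names are not reported here; they remain in counts and medians.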

Additional observations from a re-analysis of the deposited data

How the results depend on the processing

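The deposited list has no value per library, so leaving out a library was not possible. No paired analysis was possible because each group has 1 library and the list holds no value per library. Folds are called alike here within the Poisson 95% interval, other values within 1.5 times; 85 of the main comparisons were alike and 31 moved. With a 500 bp window, the HoxA median was 16.1-fold. With 2000 bp the medians were 9.74 for groups 1 to 4, 8.23 for groups 9 to 13, 31.4 for HoxA, 10.8 for HoxB and 2.67 for HoxC. Reading summits anywhere in the gene gave 8.70 for all Hox genes, 9.74 for groups 1 to 4, 8.93 for groups 9 to 13, and 30.03, 12.8, 2.67 and 8.70 for HoxA, HoxB, HoxC and HoxD. Listed starts only (22 genes) gave 8.70 for all, 9.16 for groups 9 to 13, and 16.1, 3.94, 6.72 and 8.70 for HoxA to HoxD, the HoxC value from 1 gene. The start side only, chosen after seeing the data, gave 16.1 for HoxA. Above a −log10 q of 10, 118 regions were left, 44 in HoxB and 7 in HoxC, with 3.25% of HoxC covered and a median gap of 1630.5 bp. Over the whole windows 39.7% of HoxA and 2.89% of HoxC was covered. With 100 kb flanks, regions per 50 kb were 9.5 beyond Hoxa13, 0.5 beyond Hoxb1, 1 beyond Hoxc4 and 1 beyond Hoxd1. Under each of these gene windows HoxA had the highest cluster median. The cause of these moves was not tested. Single genes gave 172 like values and 45 that moved. Depth limits weak calls, and a gene without a summit is not shown to be closed. No HoxC gene-end value passed 4.75-fold and no HoxC region 8.58-fold, where the lowest fold in the list was 2.09.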
